A study of Mus musculus with 6 samples.

Results

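The dynein genes measured here are 21 genes for subunits of axonemal and cytoplasmic dynein and for factors that assemble axonemal dynein, out of 15792 genes in the table. They were chosen by a rule on names, set with earlier results of these data known. The rule takes genes whose platform symbol starts with Dnah, Dnai, Dnal, Dync1 or Dynl, or is that of a dynein assembly factor. The older forms Dnahc, Dnaic and Dnalc are included. The 21 genes hold 591 of the 188590 probe sets, the short exon or transcript regions that an exon array measures separately. By role they are 6 axonemal heavy chains, 4 axonemal intermediate and light chains, 5 subunits of cytoplasmic dynein 1, 4 light chains of the LC8, roadblock and Tctex types, and 2 assembly factors. Other heavy chains, such as Dnah3, Dnah7a, Dnah9, Dnah10 and Dnah17, and the light chains Dynll1 and Dynlt1 are not analysed here; the 21 are all the genes that the rule found, and none was dropped for its values.

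Total RNA of whole testes was measured on 6 exon arrays, 3 from wild-type (WT) mice and 3 from mice with a knockout of Ttll5, also named Stamp (KO). Ttll5 is a member of the tubulin tyrosine ligase-like enzymes, many of which add glutamate to tubulin, and the series title ties its loss to malformed sperm and infertile males. WT and KO mice alike were of mixed genetic background, with contributions from C57BL/6, 129/SvEv and FVB/N, and were littermates matched for age and sex. The sources used here do not give the age, the deleted stretch of Ttll5, the litter of each mouse or whether an array holds 1 mouse or a pool. The design text calls the 3 arrays of a group biological replicates without saying how they were separated, so the spread behind each p-value may be technical in part.

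Dyneins are motors that walk along microtubules toward the minus end, driven by heavy chains that split ATP. In the axoneme of the sperm tail, outer and inner arms built from axonemal heavy, intermediate and light chains slide neighbouring doublet microtubules against each other and so bend the flagellum. Cytoplasmic dynein 1 carries cargo, positions nuclei and, in spermatids, moves along the manchette, the microtubule skirt around the shaping nucleus. Axonemal arms are put together in the cytoplasm by dedicated assembly factors before they enter the flagellum. Tubulin glutamylation is known to affect how dyneins work on microtubules, so the comparison of KO with WT addresses whether the transcripts of these motors differ where the enzyme is lost.

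The Ttll5 transcript checked the labels. The gene stood at 11.16, 11.14 and 11.16 in the WT arrays and at 9.58, 9.49 and 9.53 in the KO arrays (log2), so the groups were far apart. The difference, KO minus WT as everywhere below, was -1.62 (SE 0.066, limma adjusted p = 4.3e-05). The tissue label was checked with 10 lists of cell type markers. All 8 round spermatid and all 10 elongating spermatid markers were measured, none with a mean under the lower quartile of the arrays, and the mean level of the latter ran from 12.55 to 12.62 in WT and from 12.50 to 12.57 in KO. In contrast 6 of 8 epididymis markers lay below that quartile. The arrays had medians of 6.72 to 6.77 and lower quartiles of 4.59 to 4.67 over all probe sets.

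No dynein gene passed the test of KO against WT testes. Of the 21 genes 0 passed the threshold (limma, Benjamini-Hochberg adjusted p under 0.05 over all genes), against 11 of all 15792 genes, or 0.0697%. At an unadjusted p under 0.05 the count was also 0, where 6.05% of all genes reached that level. At the adjusted threshold an ordinary linear model without moderated variances called 0 of the 21 genes, and only 2 of all 15792 genes. The smallest limma adjusted p was 0.88. In all 21 genes the values of the 3 KO arrays overlapped those of the 3 WT arrays, whereas 11.2% of all genes had groups that did not overlap (4.53% higher and 6.67% lower in KO). The differences ran from -0.15 to 0.25, with 7 above 0 and 14 below 0 (48.9% and 51.1% of all genes) and a median of -0.021 beside -0.0026 over all genes. Their median size was 0.053, beside 0.068 over all genes. With 3 arrays a group the lowest p open to an exact permutation test is 0.1, so the tests rest on the variance that limma pools over genes.

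The intervals state what sizes of difference in the mean of a gene's probe sets these arrays leave room for. The 95% interval of the limma fit lay inside a 1.5-fold change in either direction for 20 of the 21 genes, and inside a 2-fold change for all 21. Its half-width ran from 0.15 to 0.49 with a median of 0.20. The gene whose interval went beyond 1.5-fold was Dnahc11, with 0.85-fold to 1.66-fold. The intervals do not bound other summaries of a gene. With the median of probe sets Dnalc4 differed by 0.39, above the upper end of its interval at 0.34. In Dnahc5 and Dnahc11 57.0% and 49.4% of the probe sets averaged lay under the lowest lower quartile of an array. The smallest difference called among all genes was 0.65 in size. The deposited arrays have like distributions, so a shift shared by most genes may not appear, and in bulk testis fewer cells of a type and less RNA per cell cannot be told apart.

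**Figure D1:**
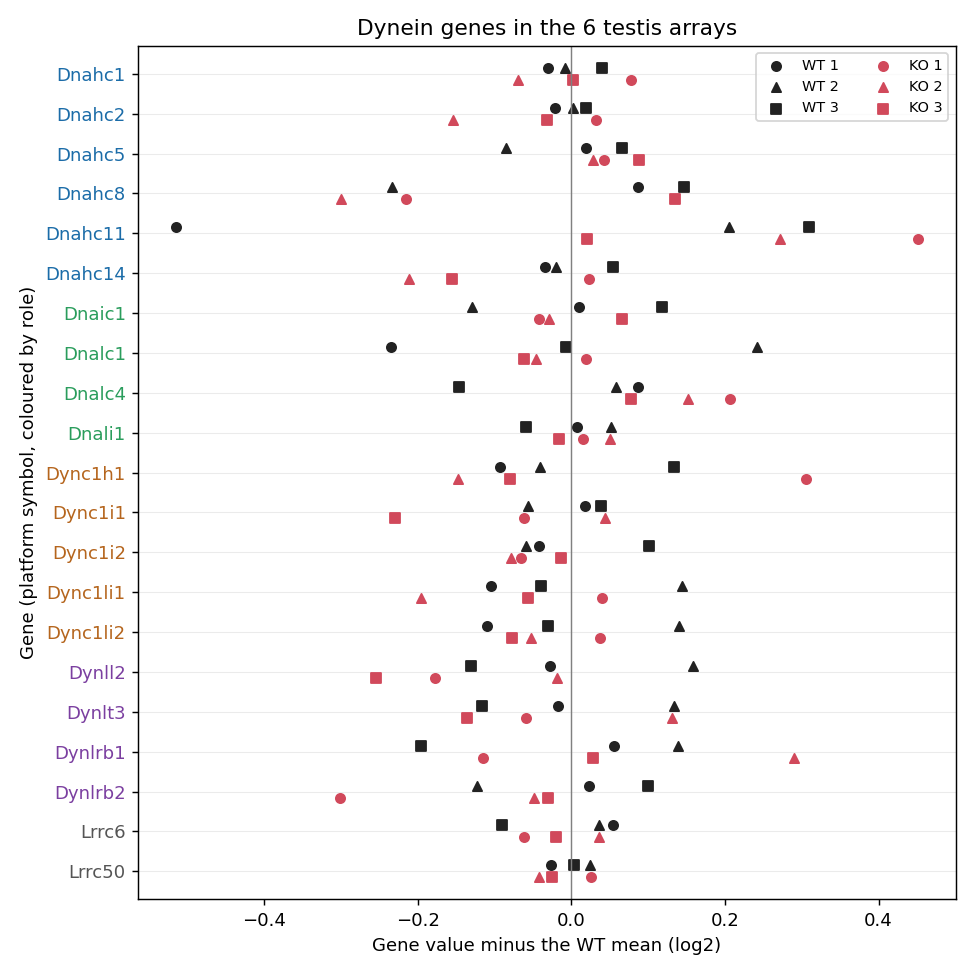
Gene values of the 21 dynein genes in each array, as the log2 value minus the WT mean of the gene (horizontal axis), with WT arrays in black and KO arrays in red and the marker shape giving the replicate number; label colours mark the 5 roles, from axonemal heavy chains at the top to assembly factors at the bottom. Black and red points overlap in every row, and the WT 1 point of Dnahc11 lies farthest to the left.

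The axonemal heavy chains, the ATP-splitting motors of the arms, were represented by 6 genes and 353 probe sets. Dnahc8 (now Dnah8), an outer arm heavy chain of the sperm tail, is named here after its values were seen. It stood at 12.21, 11.89 and 12.27 in WT and at 11.91, 11.82 and 12.26 in KO. WT 2, KO 1 and KO 2 were low, and WT 1, WT 3 and KO 3 were high, so the spread ran within both groups. The difference was -0.13 (SE 0.14, limma adjusted p = 0.95; 95% interval -0.45 to 0.19). It was -0.040 without KO 2 and -0.26 without KO 3.

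The probe sets of Dnahc8 followed this order nearly in unison. Of its 101 probe sets 100 had a lower KO than WT mean, with a median of -0.12, yet 0 had groups that did not overlap and 0 reached an unadjusted limma p under 0.05. The lowest array was KO 2 in 58 of them, KO 1 in 23 and WT 2 in 20, and the highest was WT 3 in 47, KO 3 in 36 and WT 1 in 18. The probe sets share arrays and a transcript, so their common sign is not 100 separate observations. The probe set with the other sign, 5420108, read 12.19, 9.90 and 12.18 in WT and 11.95, 11.74 and 12.23 in KO. WT 2 lay far below the other arrays there, and the difference was 0.55 (SE 0.58, limma adjusted p = 0.98).

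Dnahc11 (now Dnah11), an outer arm heavy chain of motile cilia whose loss disturbs left-right placement of organs, had the largest difference of the 21 genes and the widest spread. Its level was 4.10, 4.82 and 4.93 in WT and 5.07, 4.89 and 4.64 in KO. WT 1 lay apart from all other arrays, and without it the other WT arrays fell within the KO range. The difference was 0.25 (SE 0.21, limma adjusted p = 0.93), and -0.0096 (limma adjusted p = 0.99) with WT 1 left out. WT 1 was the lowest array in 65 of the 85 probe sets, and KO 1 was the highest in 43. Here 73 probe sets had a higher KO mean and 12 a lower one, and 2 reached an unadjusted p under 0.05, both higher (background for that direction 2.62%). Dnahc11 lies on chromosome 12, as Ttll5 does, 32.1 Mb away in the RefSeq annotation of GRCm38.p6.

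Dnahc5 (now Dnah5), another outer arm heavy chain of motile cilia, lay in a narrow range at the gene level. It stood at 4.52, 4.42 and 4.57 in WT and at 4.55, 4.53 and 4.59 in KO, with a difference of 0.053 (SE 0.072, limma adjusted p = 0.97). The lowest array was WT 2 and the highest KO 3, with the groups overlapping. Among its 86 probe sets, however, 8 reached an unadjusted limma p under 0.05 and all 8 were higher in KO, a share of 9.30% where 2.62% of all probe sets did so. They share a transcript and 6 arrays and are not separate observations of it. None of the 8 passed adjustment over all probe sets (smallest adjusted p = 0.87), and the median over the 86 was 0.024. With the dim probe sets (mean under the 40th percentile of all) left out, the gene differed by 0.13 (limma adjusted p = 0.81). Of the 8, 3 lay below the lower quartile of the arrays.

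Dnahc5 and Dnahc11 also stood apart by how dim their probe sets were. In Dnahc5 49 of 86 probe sets (57.0%) and in Dnahc11 42 of 85 (49.4%) had a mean over the 6 arrays under the lowest lower quartile of an array, and 1 and 4 lay above the highest median. By contrast all 101 probe sets of Dnahc8, all 35 of Dnahc2, all 32 of Dnahc1 and all 14 of Dnahc14 lay above that median. Probe sets differ in how well they bind, so these are counts against the array's own distribution and not a ranking of transcript amounts. No detection call was available, and the dim probe sets are not shown to be above background. Of the markers for the ciliated cells of the efferent ducts that could come with a testis, 5 of 8 were measured. Their mean level was 5.83 to 5.89 in WT and 5.86 to 5.92 in KO, and 1 of the 5, the Sntn gene (listed as A430083B19Rik), was below the lower quartile at 3.79 and 3.85. The part of those cells in the Dnahc5 and Dnahc11 values was not tested.

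**Figure D2:**
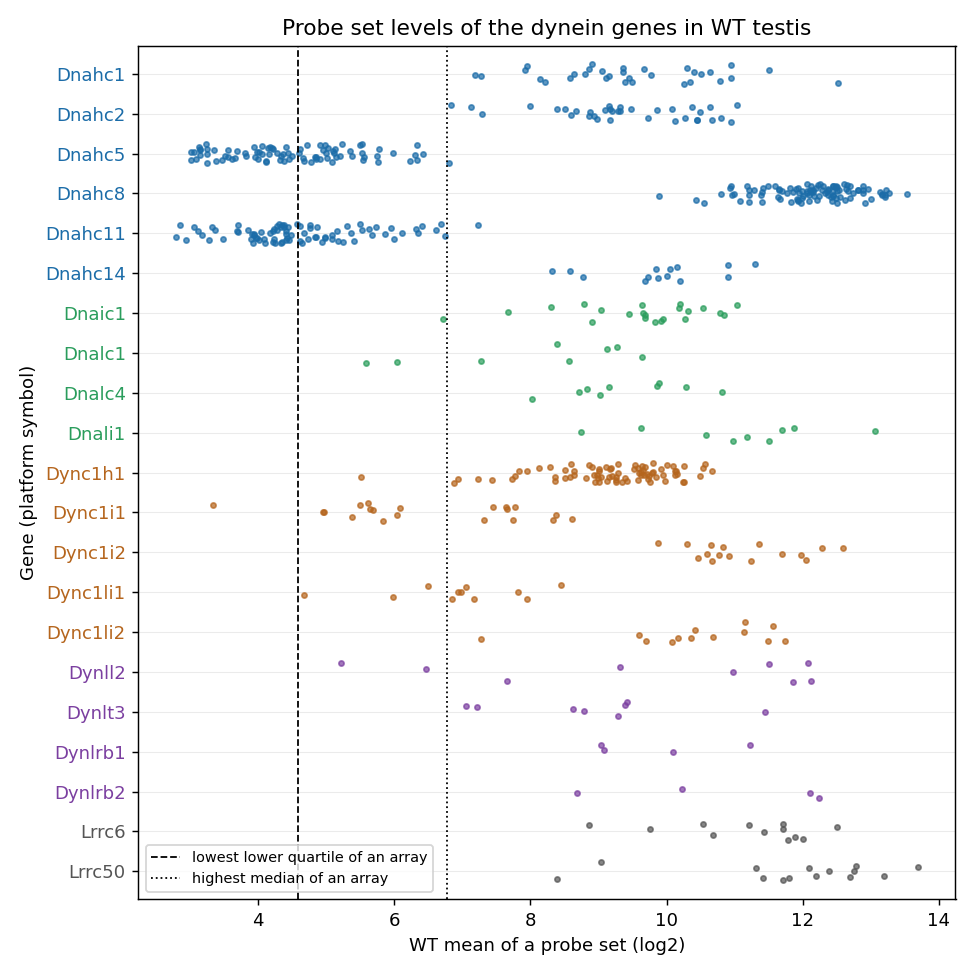
WT mean of each probe set (log2, horizontal axis) for the 21 dynein genes, 1 point per probe set, with the vertical scatter inside a row added for legibility; the dashed line is the lowest lower quartile of an array and the dotted line the highest array median. The points of Dnahc5 and Dnahc11 lie about the dashed line, and those of Dnahc8 lie far to the right of the dotted line.

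The other heavy chains had overlapping groups as well. Dnahc14 (now Dnah14), an axonemal-type heavy chain, read 9.85, 9.86 and 9.94 in WT and 9.90, 9.67 and 9.73 in KO. KO 2 and KO 3 lay below all WT arrays and KO 1 did not, and the difference was -0.11 (SE 0.082, limma adjusted p = 0.91). Of its 14 probe sets 12 were lower in KO. Dnahc1 (now Dnah1), an inner arm heavy chain needed for a normal sperm tail, ranged from 9.41 to 9.56 over the 6 arrays and differed by 0.0032 (SE 0.071, limma adjusted p = 1.00; interval -0.16 to 0.17). Dnahc2 (now Dnah2), another inner arm heavy chain, ranged from 9.22 to 9.41 and differed by -0.052 (SE 0.074). Its 35 probe sets split into 18 higher and 17 lower, with 4 at an unadjusted limma p under 0.05, 1 higher and 3 lower. The 4 are 11.4% of its probe sets and the 3 are 8.57%, beside 5.36% and 2.74% of all probe sets, and none passed adjustment.

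Among the intermediate and light chains of the axonemal arms, Dnalc4 had the smallest p of all 21 genes. Dnalc4 (now Dnal4), a dynein light chain, stood at 9.49, 9.46 and 9.25 in WT and at 9.61, 9.55 and 9.48 in KO. KO 1 and KO 2 were above every WT array, while KO 3 lay just under WT 1. The difference was 0.15 (SE 0.086, limma adjusted p = 0.88; interval -0.051 to 0.34), with 7 of 9 probe sets higher and 0 at an unadjusted p under 0.05. The median of its probe sets in place of their mean gave 0.39 (limma adjusted p = 0.85), and leaving out WT 3 gave 0.072.

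Dnalc1 (now Dnal1), the light chain that sits on the motor domain of an outer arm heavy chain, is the dynein gene nearest to Ttll5, 1.81 Mb away on chromosome 12. It read 7.75, 8.23 and 7.98 in WT and 8.01, 7.94 and 7.93 in KO. The KO arrays lay close together between WT 1 and WT 2, which were the lowest and the highest of the 6. The difference was -0.029 (SE 0.12, limma adjusted p = 0.99; interval -0.30 to 0.24), and 5 of its 8 probe sets were higher and 3 lower. Dnaic1, an intermediate chain that helps fix the outer arm to the doublet, ranged from 9.48 to 9.73 and differed by -0.0016 (SE 0.084). Dnali1, a light chain of inner arms, ranged from 10.97 to 11.08 and differed by 0.017 (SE 0.068). None of the 48 probe sets of these 4 genes reached an unadjusted limma p under 0.05.

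The 5 subunits of cytoplasmic dynein 1 had differences from -0.082 to 0.026. Dync1h1, the heavy chain and motor of the complex, stood at 9.09, 9.14 and 9.31 in WT and at 9.48, 9.03 and 9.10 in KO. The highest and the lowest array were both KO, and the difference was 0.026 (SE 0.13, limma adjusted p = 0.99). KO 1 was the highest array in 55 of its 79 probe sets and KO 2 the lowest in 35. The gene lies on chromosome 12, 24.7 Mb from Ttll5.

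Dync1i1 and Dync1i2 are the intermediate chains through which the complex binds dynactin and many cargoes. Dync1i1 read 6.52, 6.44 and 6.54 in WT and 6.44, 6.54 and 6.27 in KO, with KO 3 below the rest and the others mixed. Its difference was -0.082 (SE 0.087, limma adjusted p = 0.95). Dync1i2 ranged from 11.06 to 11.24 and differed by -0.053 (SE 0.074), with 12 of 16 probe sets lower and 4 higher.

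The light intermediate chains Dync1li1 and Dync1li2 link the motor to its cargo adaptors. Dync1li1, on chromosome 9, stood at 6.84, 7.09 and 6.90 in WT and at 6.98, 6.75 and 6.89 in KO. The groups overlapped, with a difference of -0.071 (SE 0.095, limma adjusted p = 0.97). Dync1li2 ranged from 10.30 to 10.55 and differed by -0.031 (SE 0.085), with 6 of 13 probe sets higher and 7 lower.

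**Figure D3:**
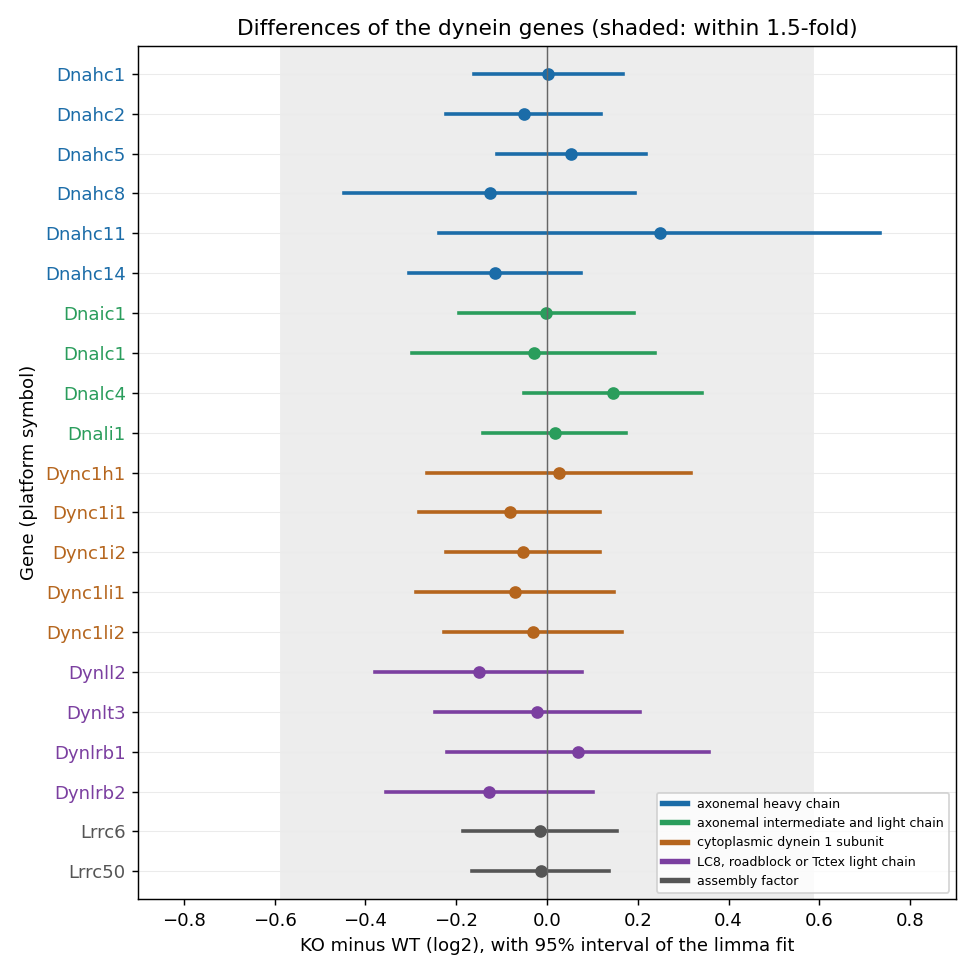
KO minus WT of each dynein gene (log2, point) with the 95% interval of the limma fit (bar), coloured by role; the shaded band spans a 1.5-fold change in either direction. Every interval covers 0, and 20 of 21 lie inside the band, the exception being Dnahc11.

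Light chains of the LC8, roadblock and Tctex types serve cytoplasmic and axonemal dyneins alike and hold intermediate chains together. Dynll2, of the LC8 type, stood at 9.66, 9.85 and 9.56 in WT and at 9.51, 9.67 and 9.44 in KO. KO 1 and KO 3 lay below all WT arrays and KO 2 did not. Its difference of -0.15 (SE 0.099, limma adjusted p = 0.90; interval -0.38 to 0.078) was the lowest of the 21 genes with all arrays. Without WT 2 it was -0.071, above the -0.24 of Dnahc8 in the same setting. All 9 of its probe sets had a lower KO mean, from -0.27 to -0.020. In 2 the groups did not overlap, both lower in KO. Over all 188590 probe sets 9935 were lower in KO without overlap (10.2% without overlap in either direction). The 9 share a transcript and 6 arrays and are not separate observations.

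The roadblock light chains pointed in opposite directions, neither past the threshold, and their contrast was not tested. Dynlrb2, the roadblock chain known from ciliated tissues and testis, read 10.84, 10.69 and 10.92 in WT and 10.51, 10.77 and 10.79 in KO. KO 1 was lowest, in all 4 of its probe sets. The difference was -0.13 (SE 0.099, limma adjusted p = 0.92), and -0.039 without KO 1. Dynlrb1, the more widely expressed form, read 9.92, 10.00 and 9.66 in WT and 9.74, 10.15 and 9.89 in KO, a difference of 0.068 (SE 0.13, limma adjusted p = 0.98) with the groups mixed. Dynlt3, of the Tctex type, ranged from 8.77 to 9.04 and differed by -0.021 (SE 0.098).

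The assembly factors lay close to 0. Lrrc50 (now Dnaaf1), needed to preassemble outer and inner arms, read 11.79, 11.84 and 11.82 in WT and 11.85, 11.78 and 11.79 in KO. Its range of 0.069 over the 6 arrays was the smallest of the 21 genes, beside a median of 0.27 and a highest of 0.97 (Dnahc11). The difference was -0.014 (SE 0.065, limma adjusted p = 0.99). Lrrc6, an assembly factor of the same kind, read 11.23, 11.21 and 11.08 in WT and 11.11, 11.21 and 11.16 in KO, a difference of -0.015 (SE 0.073, limma adjusted p = 0.99). All 26 probe sets of the pair lay above the highest array median, and 0 reached an unadjusted limma p under 0.05.

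Single probe sets were tested next, since part of a transcript can change while the gene does not. Of the 591 dynein probe sets 0 passed (limma, adjusted over all 188590), where 72, or 0.0382%, passed in the table. At an unadjusted p under 0.05 there were 17, or 2.88% of the 591 beside 5.36% of all probe sets. Of these 12 were higher and 5 lower in KO (background 2.62% and 2.74%). The groups did not overlap in 41 (6.94%, background 10.2%). At the adjusted threshold an ordinary linear model without moderated variances also called 0 of the 591. How many of all probe sets it called is not given here. The differences ran from -0.60 to 0.84 with a median of -0.017. The half-width of a probe set's 95% interval had a median of 0.38, and the smallest probe set difference called in the table was 1.06 in size.

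The probe set with the smallest p was 5346166 of Dync1i1. It read 5.41, 5.85 and 5.69 in WT and 5.21, 5.09 and 5.09 in KO, so all KO arrays were lower, with a difference of -0.52 (SE 0.14, limma adjusted p = 0.86). The other probe sets of the gene had a mean difference of -0.059. Probe set 4791309 of Dync1li1 read 6.91, 7.05 and 6.86 in WT and 6.62, 6.36 and 6.52 in KO, again without overlap, with -0.44 (SE 0.12, limma adjusted p = 0.86). Next came 2 of Dnahc5. The brighter, 5576044, read 5.44, 5.54 and 5.65 in WT and 5.88, 6.08 and 5.93 in KO (0.42, SE 0.12). The dimmer, 4528510, read 3.12, 3.24 and 3.35 in WT and 3.48, 3.89 and 3.88 in KO (0.51, SE 0.15), all below the lower quartiles of the arrays. Both had a limma adjusted p of 0.87, so neither passed.

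Each probe set was also set against the mean of the other probe sets of its gene, as a measure of unequal exon use. None of the 591 departed from its gene past the threshold (limma, adjusted over 176693 probe sets of genes with 3 or more), where 18, or 0.0102%, did in the table. At an unadjusted p under 0.05 there were 20, or 3.38%, beside 5.17% of all those probe sets. The smallest p was that of the Dync1li1 probe set 4791309, at -0.41 against the rest of the gene (SE 0.11, limma adjusted p = 0.92). In Dync1h1 the probe set 5585052 read 8.96, 8.92 and 9.23 in WT and 9.71, 9.41 and 9.25 in KO. All KO arrays were higher, and its value against the rest of the gene was 0.40 (SE 0.12, limma adjusted p = 0.92).

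The next smallest p-values of this test belonged to a pair of Dnahc2 probe sets with values of opposite sign, neither past the threshold. Probe set 4741340 read 6.89, 6.77 and 6.82 in WT and 7.13, 7.13 and 7.19 in KO, a value against the rest of the gene of 0.38 (SE 0.12, limma adjusted p = 0.92). Probe set 4594179 read 8.56, 8.75 and 8.72 in WT and 8.43, 8.08 and 7.71 in KO, with -0.57 against the rest of the gene (SE 0.18, limma adjusted p = 0.94). In each the groups did not overlap. The sources used here do not say which exons these probe sets cover.

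**Figure D4:**
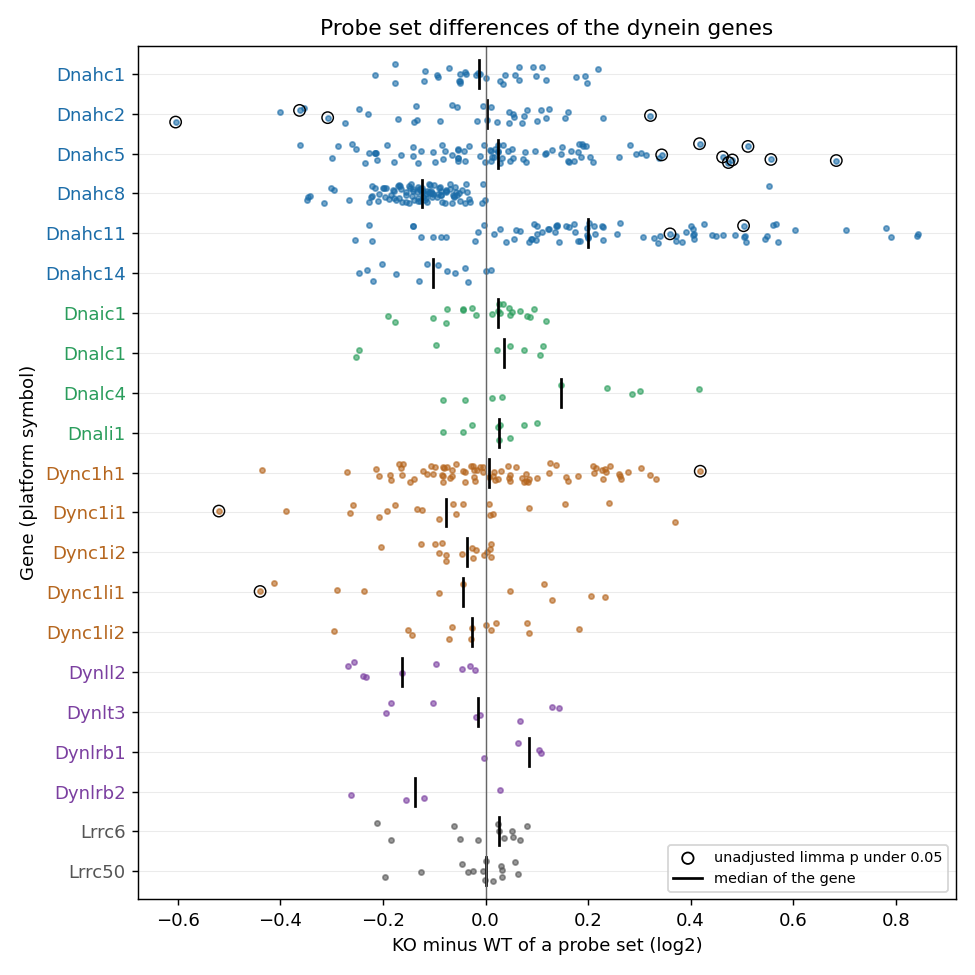
KO minus WT of each probe set (log2, horizontal axis) for the 21 dynein genes, 1 point per probe set, with a bar at the median of the gene and circles around the 17 probe sets at an unadjusted limma p under 0.05. The circles gather in Dnahc5, with 8 to the right of 0, and the points of Dnahc8 form a narrow cloud at a median of -0.12.

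The partners of the dyneins were taken from 6 lists. Of 52 measured partner genes 0 passed the threshold (limma), and at an unadjusted p under 0.05 there were 0 higher and 4 lower (background 2.6% and 3.44%). The docking complex seats outer arms on the doublet. Its list held 11 symbols, with old and current names of the same gene among them. Of its genes 3 were measured, with a median of -0.042. These were Ccdc151 (-0.092, SE 0.093), Ttc25 (0.060, SE 0.092) and Ccdc63 (-0.042, SE 0.072). The nexin-dynein regulatory complex, which links doublets and controls inner arms, had 11 of 12 measured, 2 above and 9 below 0, with a median of -0.056. Its lowest p-values belonged to Iqcg (-0.18, SE 0.085), Gas8 (-0.14, SE 0.067) and Ccdc113 (-0.13, SE 0.070), with limma adjusted p-values of 0.84 to 0.86.

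Further assembly factors, those whose names fall outside the rule, had 12 of 13 genes measured, 2 above and 10 below 0, with a median of -0.098 beside -0.0026 over all genes. In 5 of the 12 (41.7%) all KO arrays lay below all WT arrays, beside 6.67% of all genes, and none of the 5 passed the threshold. They were Dyx1c1 (now Dnaaf4), Wdr69 (now Daw1), Zmynd10, Spag1 (-0.10, SE 0.069) and 9230110C19Rik (-0.095, SE 0.067). All 5 belong to the list of 12. Its share was the highest of the partner lists, the others running from 0% to 25%. The 5 genes share arrays and are not separate observations. The last 2 go beyond the 3 genes named per list and are named here after their values were seen. In the first 3 the differences were -0.16 (SE 0.070), -0.17 (SE 0.073) and -0.15 (SE 0.068), with limma adjusted p-values of 0.81 to 0.83. The mean level of the list was 9.40 to 9.56 in WT and 9.37 to 9.38 in KO. Beside it, the mean level of the round spermatid markers ran from 11.33 to 11.40 (WT) and from 11.26 to 11.33 (KO). Their differences had a median of -0.063, and the elongating spermatid markers differed by a median of -0.058. All KO arrays lay below all WT arrays in 1 of 8 round (12.5%) and 3 of 10 elongating (30%) spermatid markers. The part of these cells in the assembly factor values was not tested.

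Axonemal dynein subunits of other names had 5 of 7 measured, with a median of -0.0067. Tctex1d4 differed by 0.088 (SE 0.088), Tctex1d1 by -0.018 (SE 0.082) and Wdr78, an inner arm intermediate chain, by -0.0072 (SE 0.067). Tctex1d4, with means of 3.18 in WT and 3.27 in KO, lay below the lower quartile of the arrays. The regulators and adaptors of cytoplasmic dynein 1 had 17 of 20 measured, 9 above and 8 below 0, with a median of 0.0022. Ccdc88b differed by -0.33 (SE 0.14), the cargo adaptor Hook2 by -0.28 (SE 0.10) and the adaptor Bicd2 by -0.17 (SE 0.088), with limma adjusted p-values of 0.77 to 0.86.

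Dynein 2 is the motor of retrograde intraflagellar transport. Its list held 8 symbols, with old and current names of the same gene among them. The 4 genes measured, all of the list but Dync2h1, had a median of -0.067. The dynein 2 light chain gene Tctex1d2 read 10.82, 11.03 and 10.78 in WT and 10.44, 10.64 and 10.46 in KO. All KO arrays were lower than all WT arrays, and the difference was -0.37 (SE 0.094, limma adjusted p = 0.53), the largest in size of the 52 partner genes. The intermediate chain Wdr34 differed by 0.17 (SE 0.086, limma adjusted p = 0.86), with all KO arrays higher, and Wdr60 by -0.10 (SE 0.13, limma adjusted p = 0.96).

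**Figure D5:**
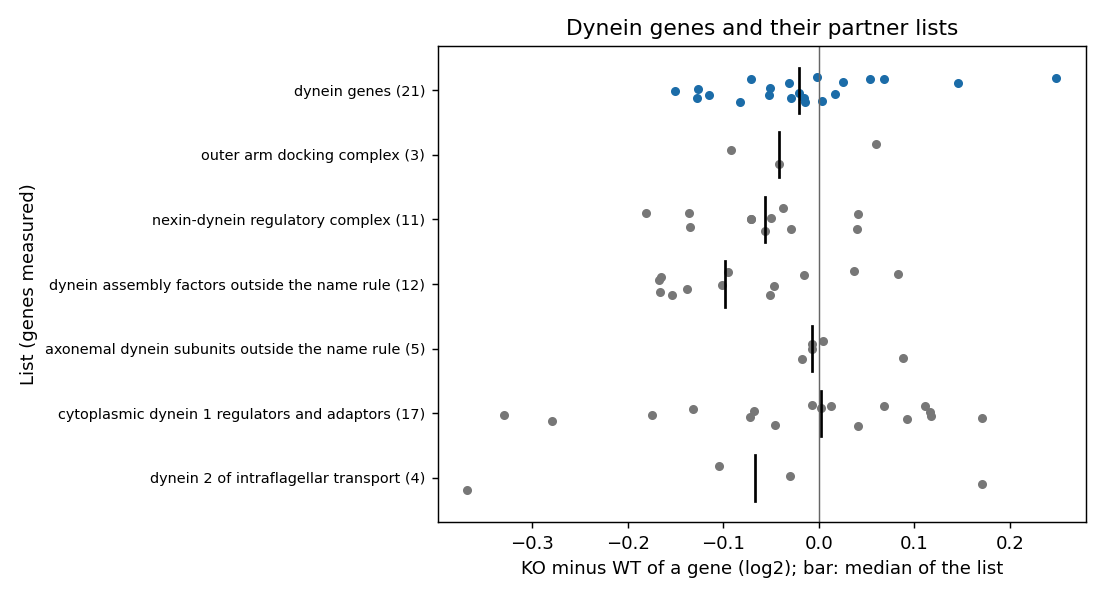
KO minus WT of each gene (log2, horizontal axis) for the 21 dynein genes (blue) and the 6 lists of partner genes (grey), with a bar at the median of each list and the number of genes measured beside its name. The medians lie between -0.098 and 0.0022, and the leftmost point is Tctex1d2 at -0.37.

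Markers of other cell types were read in the same arrays, and none passed the threshold (limma). The KO mean was above the WT mean in all 7 measured Leydig cell markers, as in 48.9% of all genes. In 4 of them the unadjusted limma p was under 0.05 (background for that direction 2.6%). These markers share cells and arrays and are not separate observations. Their median difference was 0.35, with a mean level of 9.57 to 9.94 in WT and 10.07 to 10.20 in KO. Macrophage markers had a median of 0.15 and a mean level of 5.65 to 5.76 in WT and 5.82 to 5.87 in KO. Of these 7 markers 4 were higher and 3 lower in KO, and 2 lay below the lower quartile of the arrays. The median difference was 0.031 for Sertoli cell, 0.046 for peritubular myoid cell, 0.053 for epididymis, -0.060 for spermatocyte and -0.12 for spermatogonial markers. The part of the cell makeup in the dynein values was not tested.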

How the data were processed

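The authors deposited 1 table of log2 probe set values for the 6 arrays. The submitters' processing notes name RMA and Partek 6.5 without a role for either, and the sources used here do not give the annotation build. Values were used as deposited. Probe sets with 1 platform symbol (179163) entered gene values, the mean log2 value of a gene's probe sets; 1322 with several symbols and 8105 with none did not. Symbols were looked up in RefSeq (GRCm38.p6), where 12 of the 21 dynein symbols are the present name and 9 an older one. KO was compared with WT by limma 3.58.1 (R 4.3.3; lmFit, eBayes, two-sided, no covariates) on genes, on probe sets and on departures from the gene, each adjusted over its whole table at a threshold of 0.05. The functions were tested on simulated arrays. The members and lists were chosen with earlier results of these data known.

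Every dynein gene was to be named. All 6 array values are given for the 4 genes per direction with the smallest p, the best of each role and all on chromosomes 12 and 9. Of the probe sets, the 4 with the smallest p in each of the tests are given, and up to 3 genes per partner list.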

Additional observations from a re-analysis of the deposited data

How the results depend on the processing

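Under all 15 alternatives (gene summary, filters at the 40th percentile, normalization, centring, moderation, array weights, the replicate block, each array left out), 0 dynein genes passed (limma; smallest adjusted p 0.69). In the 13 that bear on probe sets, all but the gene summary and the dim gene filter, 0 dynein probe sets and 0 departures passed. The median difference stayed between -0.039 and 0.0011. Dim genes left out removed Dnahc5 and Dnahc11. Over all genes 11 were called, but 5 with the median of probe sets, 20 with trended and robust moderation and 2 without moderation. With the replicate block the count was 0 dynein genes and 9 of all genes. Same-numbered arrays correlated at -0.17, 0.072 and 0.18 in their deviations, and differently numbered ones at -0.29 to 0.22. With 3 arrays a group these values cannot tell whether the numbers pair the samples.

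The difference changed sign under at least 1 alternative in 13 of the 21 genes. Among them was Dnahc11, whose difference was the largest with all arrays. With the median of probe sets Dnahc1 was -0.034, Dnahc2 0.080, Dnaic1 0.0031, Lrrc50 0.013 and Lrrc6 0.0068. Dnaic1 was 0.011 after a second quantile normalization, and array weights gave Dnahc1 -0.0083, Dnaic1 0.00017 and Dync1h1 -0.011. With 1 array left out the ranges were -0.034 to 0.040 for Dnahc1, -0.0096 to 0.40 for Dnahc11, -0.066 to 0.058 for Dnaic1, -0.15 to 0.092 for Dnalc1, -0.013 to 0.042 for Dnali1, -0.11 to 0.11 for Dync1h1, -0.13 to 0.0011 for Dync1li1, -0.086 to 0.039 for Dync1li2, -0.043 to 0.16 for Dynlrb1, -0.097 to 0.046 for Dynlt3, -0.034 to 0.00022 for Lrrc50 and -0.061 to 0.012 for Lrrc6. Without a change of sign they were -0.093 to -3e-05 for Dnahc2, 0.011 to 0.086 for Dnahc5, -0.26 to -0.040 for Dnahc8, -0.18 to -0.066 for Dnahc14, 0.072 to 0.19 for Dnalc4, -0.15 to -0.0085 for Dync1i1, -0.082 to -0.0021 for Dync1i2, -0.22 to -0.071 for Dynll2 and -0.19 to -0.039 for Dynlrb2. The cause was not tested. For Dnahc11, leaving out dim probe sets gave 0.44 (limma adjusted p = 0.86). With 3 arrays a group, a difference inside a printed interval may exist without passing the test.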
